A study of Mus musculus with 10 samples.

Results

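The 6 mouse genes of the platelet-derived growth factor (PDGF) system were followed in the testes of 10 male C57BL/6N mice aged 6 weeks (42 days). They are the 4 ligand genes Pdgfa, Pdgfb, Pdgfc and Pdgfd and the 2 receptor genes Pdgfra and Pdgfrb. They were taken from the array by gene identity, as all non-control probes whose transcript accession belongs to one of these genes, which gave 9 probes. The 6 genes stand among 23462 genes with a named probe, and each of the 6 had a probe among the 16738 genes tested. For each gene the brightest probe, chosen by its mean log2 signal over the 10 arrays, stands for the gene, and its other probes are given beside it. That brightness is a description of the choice and was not tested.

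The R group held 5 sons of dams that received 50% of the mean daily intake of control dams from 6.5 days post coitum onward; these sons were fostered to unrelated control dams. The C group held 5 sons of dams fed freely, and they were raised by their own mothers. All 10 males ate regular chow freely after weaning, and no gene was altered in either group. Because R sons were fostered and C sons were not, the prenatal diet and the fostering cannot be told apart. Each array carried RNA of a single testis from 1 animal, and the arrays are called R1 to R5 and C1 to C5. Litters are not given in the sources used here, so p-values measure the spread between these 10 animals, some of which may be litter mates.

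PDGF ligands are secreted as dimers that bring together receptor tyrosine kinases on neighbouring mesenchymal cells. PDGF-A and PDGF-C act through the alpha receptor encoded by Pdgfra, PDGF-B acts through both receptors, and PDGF-D acts mainly through the beta receptor encoded by Pdgfrb. PDGF-C and PDGF-D are released with a CUB domain that proteases must remove before they bind. In the mouse testis, PDGF-A made in the seminiferous tubules and the alpha receptor on interstitial cells are known to be needed for the adult Leydig cell population, while PDGF-B and the beta receptor are known for recruiting pericytes to blood vessels.

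On RefSeq's GRCm38.p6 assembly, Pdgfa lies on chromosome 5 at 138976014 to 139000792 and Pdgfra on the same chromosome at 75151322 to 75198206. Pdgfb lies on chromosome 15 at 79995865 to 80024614, Pdgfc on chromosome 3 at 81036416 to 81214040 and Pdgfd on chromosome 9 at 6168363 to 6534284. Promoter windows of 250 bases before to 50 bases after a gene start were examined for 4 of the 6 genes. Windows of Pdgfb and Pdgfrb were not examined, so the values and motif matches below leave these genes out. Among the examined windows, 3 are shown because the transcripts of their genes were called in opposite directions: Pdgfa higher, Pdgfc and Pdgfra lower in R testes. The sequences are RefSeq's, GRCm38.p6, 5′ to 3′ on the strand of the gene, and capitals mark a GC box, the letters GGGCGG on either strand.
Pdgfa, chr5:138994895-138995194, minus strand: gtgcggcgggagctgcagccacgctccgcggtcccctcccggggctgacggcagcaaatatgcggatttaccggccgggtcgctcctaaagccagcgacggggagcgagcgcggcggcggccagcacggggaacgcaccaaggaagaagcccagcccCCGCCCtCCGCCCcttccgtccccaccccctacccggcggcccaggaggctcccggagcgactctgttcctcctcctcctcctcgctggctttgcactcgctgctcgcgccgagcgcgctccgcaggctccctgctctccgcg
Pdgfc, chr3:81036166-81036465, plus strand: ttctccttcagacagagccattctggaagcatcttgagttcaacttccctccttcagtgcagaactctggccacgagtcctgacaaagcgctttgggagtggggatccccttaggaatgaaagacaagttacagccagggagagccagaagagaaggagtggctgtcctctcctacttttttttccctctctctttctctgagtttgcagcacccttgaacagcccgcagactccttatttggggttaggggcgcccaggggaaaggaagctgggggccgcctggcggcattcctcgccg
Pdgfra, chr5:75152001-75152300, plus strand: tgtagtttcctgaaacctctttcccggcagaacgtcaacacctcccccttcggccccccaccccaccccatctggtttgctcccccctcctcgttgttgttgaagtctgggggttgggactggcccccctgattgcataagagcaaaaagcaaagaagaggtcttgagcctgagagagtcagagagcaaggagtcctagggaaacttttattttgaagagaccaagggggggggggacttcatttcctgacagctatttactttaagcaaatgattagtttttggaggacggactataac
The Pdgfa window was the richest of the 3 in G and C, with 73.3% GC and 37 CpG dinucleotides. The Pdgfc window had 55% GC and 8 CpG, and the Pdgfra window 51% GC and 5 CpG. Over all 32851 RefSeq windows of this length the median was 52.7% GC and 7 CpG. The shown Pdgfa window held 2 GC boxes side by side, and another start of the gene, at chr5:138994232-138994531, held 1 in a window of 67% GC. No GC box was found in the Pdgfc, Pdgfra or Pdgfd windows; 35.7% of all windows hold one. The letters TATAAA, present in 13.6% of all windows on either strand, were found in the Pdgfd window only among these 5. Neither CCAAT, present in 37.4% of all windows, nor AAGGTCA, the half-site of steroidogenic factor 1 present in 4.72%, was found on either strand of any of the 5 windows.

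Values below are log2 signals relative to the 75th percentile of each array's non-control probes, which is set to 0, and differences are R minus C. The signal at that percentile was 804 to 1019 over the 10 arrays, the share of probes clearly brighter than background was 54.6% to 65.9%, and no spot reached saturation. A call is an adjusted p under 0.05 in limma over 33851 probes. Calls were common: 13059 probes passed, 38.6% of those tested (21.4% higher and 17.1% lower in R), and 5955 genes passed by their brightest probe, 35.6%. Of the called probes 55.6% were higher in R, a share that was 27.6% when the array median was the zero point and 44.7% after quantile normalization. One control array, C2, stood apart on the first principal component, at -123 against -13.9 to -29.5 for the other C arrays and 33.6 to 49.2 for the R arrays. R1 to R4, C1 and C2 were hybridised on one slide (slide 1), and R5 and C3 to C5 on another (slide 2), so 4 R and 2 C arrays shared slide 1, and 1 R and 3 C arrays shared slide 2. The testis markers were present in both groups: the 10 spermatid genes summed to 1237 to 1399 times the 75th percentile signal in R and to 1202 to 1426 times in C.

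Of the 6 PDGF genes, 4 were called: Pdgfrb and Pdgfa higher in R testes, and Pdgfc and Pdgfra lower. The share called over all genes was 35.6%, with 14.9% called higher and 20.6% called lower. In 2 of the 6 genes, Pdgfc and Pdgfrb, the R and C animals did not overlap; over all genes tested 29.1% did not overlap, 12.6% with R higher and 16.5% with R lower. With 6 genes these counts say little beyond the individual values, which follow. The smallest p that the exact 2-sided permutation test can give with 5 against 5 animals is 0.00794, over 252 divisions.

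**Figure D1:**
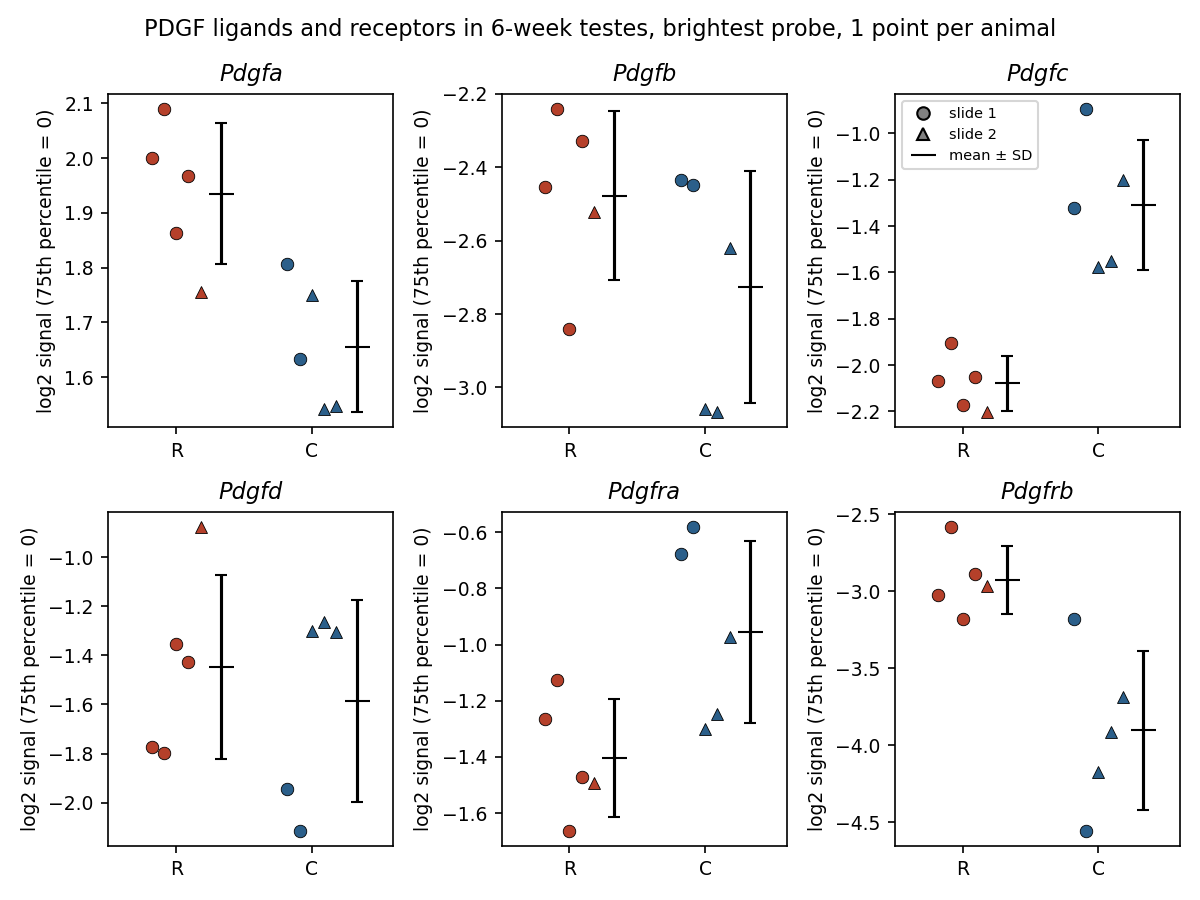
Log2 signal of the brightest probe of each PDGF gene (y axis, 75th percentile of the array = 0), with R animals left and C animals right. Circles are arrays of slide 1 and triangles of slide 2, and the bar beside each group is its mean ± SD of 5 animals. All 5 R values of Pdgfc lie below, and all 5 R values of Pdgfrb above, every C value, while Pdgfd separates by slide more than by group.

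Pdgfc, a ligand of the alpha receptor, was the ligand with the clearest difference. It had -2.07, -1.90, -2.17, -2.05 and -2.20 in R1 to R5, against -1.32, -0.89, -1.57, -1.55 and -1.20 in C1 to C5. Every R testis was below every C testis, and the R animals lay closer together than the C animals. The means were -2.08 ± 0.12 in R and -1.31 ± 0.28 in C (SD, n = 5 each), a difference of -0.77 ± 0.13 (SE), so that the C signal was 1.71-fold the R signal (95% interval 1.40 to 2.08). The adjusted p in limma was 0.00306, and the exact 2-sided permutation test gave 0.00794. The difference was -0.94 within slide 1 and -0.76 within slide 2, and -0.67 without C2, the array with the highest Pdgfc.

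Pdgfa, the other alpha-receptor ligand, was higher in R by a small margin. Its brightest probe read 2.0, 2.09, 1.86, 1.97 and 1.76 in R1 to R5, against 1.81, 1.63, 1.75, 1.54 and 1.55 in C1 to C5. R1 to R4 were above all C animals, and R5 lay between C1 and C3, so the groups overlapped. The means were 1.94 ± 0.13 in R and 1.66 ± 0.12 in C (SD, n = 5 each), an R signal 1.21-fold the C signal (95% interval 1.07 to 1.38). The log2 difference was 0.28 ± 0.08 (SE), with an adjusted p of 0.0271 in limma and 0.0159 in the exact 2-sided permutation test. The call did not hold when R1, R2, R4, C4 or C5 was left out, where the difference was 0.24 to 0.27 and the adjusted p in limma 0.0517 to 0.0643. Within slide 1 the difference was 0.26, and within slide 2 it was 0.14, neither called. With the array median as the zero point it was 0.07 (adjusted p 0.581).

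The dimmer Pdgfa probe, to the same transcript, gave -1.27, -1.29, -1.39, -1.08 and -1.24 in R1 to R5, against -1.47, -1.85, -1.23, -1.47 and -1.46 in C1 to C5. Its difference of 0.24 ± 0.11 (SE) had the same sign and nearly the same size as that of the brightest probe, but it was not called (adjusted p 0.102 in limma). C3 was the exception among the C animals, lying above 4 of the 5 R animals.

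Pdgfb, the ligand of both receptors, had -2.45, -2.24, -2.84, -2.33 and -2.52 in R1 to R5, against -2.44, -2.45, -3.06, -3.07 and -2.62 in C1 to C5. The groups overlapped, with C1, C2 and C5 among the R values. The means were -2.48 ± 0.23 in R and -2.73 ± 0.32 in C (SD, n = 5 each), and the difference of 0.25 ± 0.16 (SE) was not called (adjusted p 0.234 in limma, 0.206 in the exact 2-sided permutation test). Its 95% interval ran from -0.11 to 0.61. The low C values stood on slide 2: the difference was -0.02 within slide 1 and 0.39 within slide 2.

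Pdgfd, the ligand of the beta receptor, differed between slides more than between groups. It had -1.77, -1.80, -1.35, -1.43 and -0.88 in R1 to R5, against -1.95, -2.11, -1.30, -1.26 and -1.30 in C1 to C5. Within each slide every R animal was above every C animal, but C3, C4 and C5 on slide 2 were above all R animals of slide 1. Over all 10 animals the means were -1.45 ± 0.37 in R and -1.59 ± 0.41 in C (SD, n = 5 each), a difference of 0.14 ± 0.22 (SE) that was not called (adjusted p 0.636 in limma, 0.587 in the exact 2-sided permutation test). Within slide 1 it was 0.44 and within slide 2 it was 0.41. With the slide as a block in the fit the difference was 0.43 ± 0.11 (SE) with an adjusted p of 0.0109 in limma, a fit that called 51.5% of all genes, and without C2 the blocked difference was 0.38 (adjusted p 0.0420). Slide 2 holds a single R animal, R5, without which the unblocked difference was -0.0028.

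Pdgfrb, the beta receptor that pericytes and other mural cells carry, lies on chromosome 18 at 61045127 to 61085067 (GRCm38.p6) and was higher in R. It had -3.03, -2.59, -3.18, -2.89 and -2.96 in R1 to R5, against -3.18, -4.55, -4.17, -3.91 and -3.69 in C1 to C5. All R animals were above all C animals, but R3 exceeded C1 by only 0.005. The means were -2.93 ± 0.22 in R and -3.90 ± 0.51 in C (SD, n = 5 each), an R signal 1.96-fold the C signal (95% interval 1.39 to 2.78). The difference of 0.97 ± 0.23 (SE) had an adjusted p of 0.00993 in limma and 0.00794 in the exact 2-sided permutation test. It was 0.95 within slide 1, not called (adjusted p 0.0865 in limma), and 0.96 within slide 2, which holds a single R animal, R5. Without C2, which had the lowest value, the difference was 0.81. Under normexp background correction with an offset of 50 it was 0.42 and stayed called (adjusted p 0.0132). With slide as a block and C2 left out together, it was 0.60 with an adjusted p of 0.0510.

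Pdgfra, the alpha receptor carried by interstitial mesenchyme, was lower in R, at the edge of the threshold. Its brightest probe read -1.26, -1.13, -1.66, -1.47 and -1.49 in R1 to R5, against -0.68, -0.58, -1.30, -1.25 and -0.97 in C1 to C5. The groups overlapped: R1 and R2 lay above C3, and R3, R4 and R5 lay below every C animal. The means were -1.40 ± 0.21 in R and -0.96 ± 0.32 in C (SD, n = 5 each), and the C signal was 1.36-fold the R signal (95% interval 1.07 to 1.74). The difference of -0.45 ± 0.16 (SE) had an adjusted p of 0.0487 in limma and 0.0397 in the exact 2-sided permutation test. Leaving out R1, R3, R4, R5, C1, C2 or C5 ended the call, at differences of -0.35 to -0.48 and adjusted p values of 0.0675 to 0.105. It was -0.75 within slide 1 (adjusted p 0.0210), -0.32 within slide 2 and -0.60 with slide as a block (adjusted p 0.00874).

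Of the other Pdgfra probes, one gave -4.75, -4.21, -5.70, -5.46 and -5.75 in R1 to R5, against -4.28, -4.23, -4.56, -4.92 and -4.50 in C1 to C5. It was well above background on 2 R and 4 C arrays. Its difference of -0.67 ± 0.29 (SE) had the sign of the brightest probe and was not called (adjusted p 0.0873 in limma). The third, to a non-coding transcript, was above background on 0 of the 10 arrays and went untested.

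The study's own criterion asks for a fold above 1.5 or below 0.66 with a q value under 0.05. In this fit Pdgfrb (1.96-fold) and Pdgfc (0.59-fold, R over C) passed both parts, while Pdgfa (1.21-fold) and Pdgfra (0.73-fold) passed the adjusted p only. With normexp background correction Pdgfrb, at a log2 difference of 0.42, fell below the fold of 1.5, and Pdgfc, at -0.62, passed both parts. None of the 9 PDGF probes is among the 2266 probes of the authors' deposited table, whose q values are all 0.515. The sides of that table do not follow the labels, with R1 on its control side and C5 on its test side. When the arrays were grouped as in that table, none of the 6 genes was called, and none of all probes either, with 2567 probes at an unadjusted p under 0.05 in limma. Without R1 and C5, Pdgfc stood at -0.75 and Pdgfrb at 1.05, both called.

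Differences between 2 PDGF probes within an array do not depend on a single scaling factor for each array. The ligand pair Pdgfa minus Pdgfc was 3.96 to 4.07 in the 5 R animals, against 2.53 to 3.33 in the 5 C animals. The R animals were within 0.11 of each other, with an SD of 0.042, while the C animals had an SD of 0.32. The receptor pair Pdgfrb minus Pdgfra was -1.76 to -1.42 in R, against -3.97 to -2.51 in C, a difference of 1.42 between the group means. Neither pair overlapped between groups, and C2 was the lowest animal in both. Pdgfb minus Pdgfc was -0.67 to -0.28 in R, against -1.55 to -1.12 in C, again without overlap, although Pdgfb itself was not called. Of the other 5 pairs computed, Pdgfrb minus Pdgfb and Pdgfra minus Pdgfa did not overlap, and Pdgfra minus Pdgfc, Pdgfd minus Pdgfc and Pdgfrb minus Pdgfd did. These pairs were chosen with the values of the genes known and have no test; each difference shows unequal change of the 2 probes, not that either one was unchanged.

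**Figure D2:**
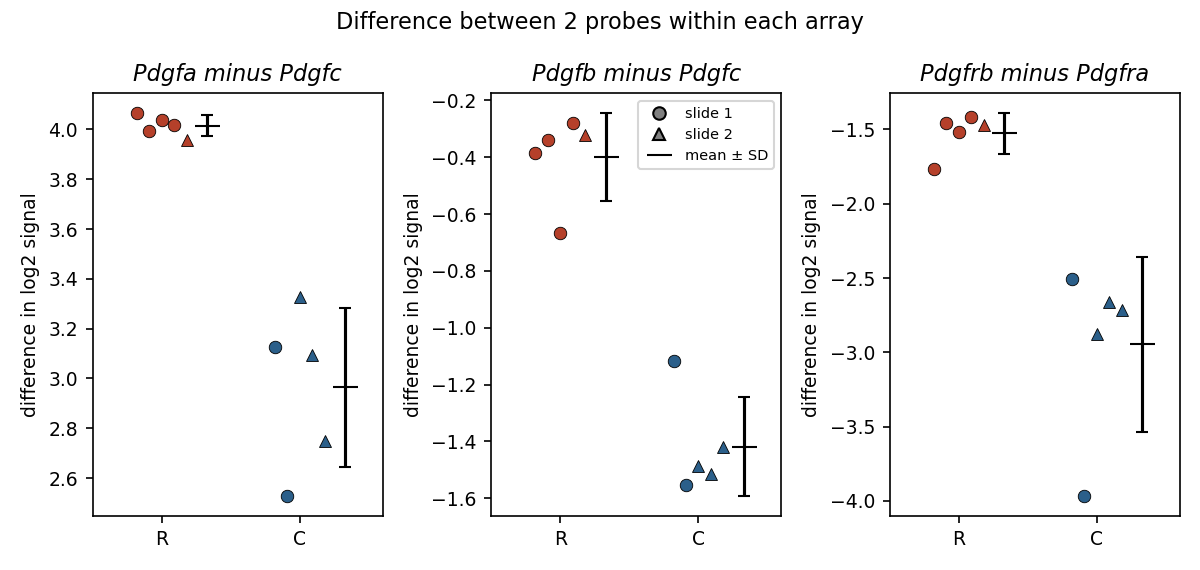
Difference in log2 signal between 2 probes on the same array (y axis) for Pdgfa minus Pdgfc, Pdgfb minus Pdgfc and Pdgfrb minus Pdgfra, with R animals left and C animals right. Circles are slide 1, triangles slide 2, and the bars are mean ± SD of 5 animals. In each pair every R animal is above every C animal, and for Pdgfa minus Pdgfc the R animals span only 3.96 to 4.07.

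After the group means were removed, the PDGF genes did not all vary together across the 10 animals. Pdgfra varied with Pdgfb (r = 0.92) and Pdgfc (r = 0.84) and against Pdgfd (r = -0.83), while Pdgfrb had an r of 0.23 with Pdgfra and -0.13 with Pdgfc. Slide, scan and array quality are shared by these points, so the values describe these arrays only. By the same measure the genes most like each PDGF gene, out of all genes tested, were Sntb2 (0.97), Wipf2 (0.96) and Suco (0.96) for Pdgfa. For Pdgfb they were Ormdl2 (0.98), Fbrsl1 (0.98) and Cabp1 (0.98), and for Pdgfc they were Pex5 (0.99), Pkdcc (0.99) and Ptma (0.99). Trmt2b (0.99), Phf21b (0.99) and Snx18 (0.98) stood closest to Pdgfra, and Mars2 (0.97), Clhc1 (0.97) and Armh1 (0.97) to Pdgfd. Pdgfrb had Gm19705 (0.97), Adamts14 (0.93) and Krtap5-4 (0.93). Of these 18 genes Sntb2 (0.40, adjusted p 0.00984 in limma) and Wipf2 (0.45, adjusted p 0.00451) were called between R and C, beside 35.6% of all genes. The 18 were picked by their variation within groups, so this count says little about them.

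Of 8 tested genes that process or bind PDGF ligands, 4 were called lower in R and 0 higher, with a median of -0.30 against -0.03 over all genes. The shares called over all genes were 20.6% lower and 14.9% higher. Plat encodes tissue plasminogen activator, which cleaves PDGF-CC; it averaged -1.98 ± 0.09 in R and -1.45 ± 0.13 in C (SD, n = 5 each), a difference of -0.53 ± 0.08 (SE, adjusted p 0.00201 in limma), with no overlap. Plau encodes urokinase, which cleaves PDGF-DD, and differed by -0.59 ± 0.20 (adjusted p 0.0420), with 2 of the 5 R arrays well above background. The proprotein convertase gene Pcsk6 differed by -0.57 ± 0.16 (adjusted p 0.0186). Sparc, a matrix protein that binds PDGF-B, differed by -0.36 ± 0.13 (adjusted p 0.0432). Furin (-0.23), Pcsk5 (-0.21), Nrp1 (0.24) and Lrp1 (-0.19) were not called, and St14 and A2m were too dim to test. The count of 4 was 2 without R1, R3 or R5.

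Among the signalling proteins that dock on the activated receptors or follow them, 4 of 32 were called higher and 10 lower in R, with a median of -0.15. The shares over all genes were 14.9% higher and 20.6% lower. Sos2, an exchange factor that activates Ras, differed by -0.92 ± 0.10 (SE, adjusted p 0.000987 in limma) and Map2k1, the kinase MEK1, by -0.89 ± 0.13 (adjusted p 0.00209). The Src-family kinase gene Yes1 differed by -0.64 ± 0.10 (adjusted p 0.00221). In the other direction Pik3ca, the catalytic p110 alpha subunit of phosphoinositide 3-kinase, was higher by 1.49 ± 0.27 (adjusted p 0.00389). Its partner subunit gene Pik3r1 was higher by 0.50, and Nras by 0.24. Sos1, Src, Fyn, Nck1, Rasa1, Jak1 and Hras were called lower, by -0.25 to -0.64. For Nras and Rasa1, 1 other tested probe each had the opposite sign. The adaptor genes Grb2 (-0.25) and Shc1 (-0.13), the phospholipase gene Plcg1 (0.17) and the phosphatase gene Ptpn11 (-0.39, adjusted p 0.0561) were not called. The count of 4 higher was 1 with the array median as the zero point and 2 after quantile normalization.

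Of 15 genes for receptor downregulation, 2 were called higher and 1 lower, with a median of -0.02, beside 14.9% and 20.6% over all genes. Cbl and Cblb, ubiquitin ligases that mark activated receptors for degradation, were higher by 0.36 ± 0.11 (SE, adjusted p 0.0312 in limma) and 0.32 ± 0.10 (adjusted p 0.0321), but 1 other tested probe of Cblb had the opposite sign. Spry1, a feedback inhibitor of Ras signalling, was lower by -0.97 ± 0.16 (adjusted p 0.00270). Neither Cbl gene was called with the array median as the zero point, nor without R1, R3 or R4, and 1 of them was called without R2, R5, C2 or C5. Spry4 was too dim to test.

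The transcripts that growth factors induce had calls in both directions: 4 of 17 were called higher and 3 lower, with a median of -0.06. These counts stand beside 14.9% called higher and 20.6% called lower over all genes, and say little about the list. Klf4 was higher by 0.64 ± 0.13 (SE, adjusted p 0.00638 in limma), Jun by 0.46 ± 0.10 (adjusted p 0.00786) and Egr3 by 0.54 ± 0.13 (adjusted p 0.0122). Klf6 was lower by -0.69 ± 0.15 (adjusted p 0.00841). Nr4a1 was also called higher, and Egr2 and Ccnd1 lower, with Egr2 well above background on 1 R array and 4 C arrays. Fos (-0.06), Egr1 (0.27) and Dusp1 (-0.02) were not called, and Myc, Atf3, Ier3 and Ccl2 were too dim to test. The count of 3 lower was 1 without R1, R3 or R4, 6 without C4, and 7 with slide as a block.

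The genes of the related class III receptors and their ligands, the family in which Pdgfra and Pdgfrb belong, had 3 of 7 called lower and 0 higher, with a median of -0.25. These counts stand beside 20.6% called lower and 14.9% called higher over all genes. Kit, the receptor of stem cell factor on differentiating spermatogonia and Leydig cells, averaged -1.15 ± 0.08 in R and -0.33 ± 0.31 in C (SD, n = 5 each), a difference of -0.82 (adjusted p 0.00279 in limma). Its ligand gene Kitl differed by -0.97 (adjusted p 0.00219), but 2 other tested probes of Kitl had the opposite sign. Flt3 differed by -0.25 (adjusted p 0.0258). Csf1r (-0.58, adjusted p 0.0876), Csf1 (-0.15), Il34 (-0.08) and Flt3l (0.40) were not called.

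Markers of the cells known to carry the receptors gave calls in both directions, and the counts of each list follow. Over all genes tested, 14.9% were called higher in R and 20.6% lower. In these bulk samples, fewer cells of a type and less RNA per cell cannot be told apart. Of 9 pericyte genes, 6 were called higher in R and 0 lower, with a median of 0.62. Abcc9, a potassium channel subunit, averaged -3.08 ± 0.27 in R and -4.11 ± 0.43 in C (SD, n = 5 each), a difference of 1.02 (adjusted p 0.00585 in limma). Rgs5, a regulator of G protein signalling, was higher by 0.90 (adjusted p 0.00749), Notch3 by 0.62 (adjusted p 0.00666) and Ndufa4l2 by 0.31 (adjusted p 0.00705). Cspg4 and Higd1b were also called, at 0.73 and 0.62. None of these 6 overlapped between the groups. Kcnj8 (-0.10), Anpep (0.08) and Mcam (-0.33, adjusted p 0.0524) were not called. Mcam also did not overlap, in the opposite direction, with every R animal below every C animal. The summed level of all 9 was 13.38 to 13.87 in R and 12.38 to 14.02 in C. Signals were summed before log2, so this level rests mainly on bright genes. Ndufa4l2 and Mcam averaged 2.99 and 2.10 in R, against -3.08 for Abcc9. The count called higher was 5 or 6 with any 1 array left out, and 4 with the array median as the zero point or with slide as a block without C2; in some of these settings 1 of the 9 was called lower.

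Of 10 endothelial genes, 4 were called higher and 0 lower, with a median of 0.40 and summed levels of 3.86 to 4.61 in R and 2.85 to 3.51 in C. Both VEGF receptor genes measured, Kdr and Flt1, were higher by 0.96 (adjusted p 0.00177 in limma) and 0.62 (adjusted p 0.00297). Vwf was higher by 0.45 and Eng by 0.35, while Cdh5 (-0.12), Pecam1 (0.53) and Cldn5 (0.19) were not called. These levels lie beside those of Pdgfrb, and their part in its difference was not tested.

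Among fibroblast and matrix genes 4 of 11 were called higher and 2 lower, with a median of 0.33. The fibrillar collagen genes Col1a1, Col3a1 and Col1a2 were higher by 1.29 (adjusted p 0.00615 in limma), 0.79 (adjusted p 0.0248) and 0.60 (adjusted p 0.00986), whereas fibronectin, Fn1, was lower by -0.46 (adjusted p 0.00142). Fbn1 was also called higher and Mgp lower, and Dcn (-0.44) and Lum (-0.40) were not called. The count of 4 higher was 2 without R3, R4, R5 or C5, 6 without C4 and 1 with the array median as the zero point, and the count of 2 lower was 1 without R1, R3, R4 or R5. Peritubular myoid and smooth muscle genes, 9 in all, gave 1 call in each direction, Myh11 at 0.43 (adjusted p 0.0135) and Actg2 at -0.33 (adjusted p 0.0199), with a median of -0.04. Acta2 stood at -0.06 and was not called.

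Of 10 genes of Leydig progenitors and interstitial mesenchyme, 2 were lower and 0 higher, with a median of -0.13. That count is near the share called lower over all genes, 20.6%, and says little about the list. Tcf21 stood at -0.98 (adjusted p 0.00413 in limma). Nr2f2 (-0.07), Nes (-0.04), Gli1 (-0.12), Thy1 (0.61) and Ptch1 (0.21) were not called. Summed levels were 2.76 to 3.87 in R and 3.03 to 4.95 in C. Only 1 of the 2 was called without R1, R3, R4, R5, C1, C2 or C5. Of 9 adult Leydig genes, 3 were lower and 0 higher, with a median of -0.28 and sums of 18.9 to 25.3 in R and 23.9 to 41.7 in C. Those 3 encode steroidogenic enzymes: Hsd3b1 at -0.76 (adjusted p 0.0163), Cyp17a1 at -0.66 (adjusted p 0.0283) and Hsd17b3 at -0.57 (adjusted p 0.0365). Star (-0.27) and Cyp11a1 (-0.24) were not called, and the count was 1 without R1, R4, R5 or C1.

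**Figure D3:**
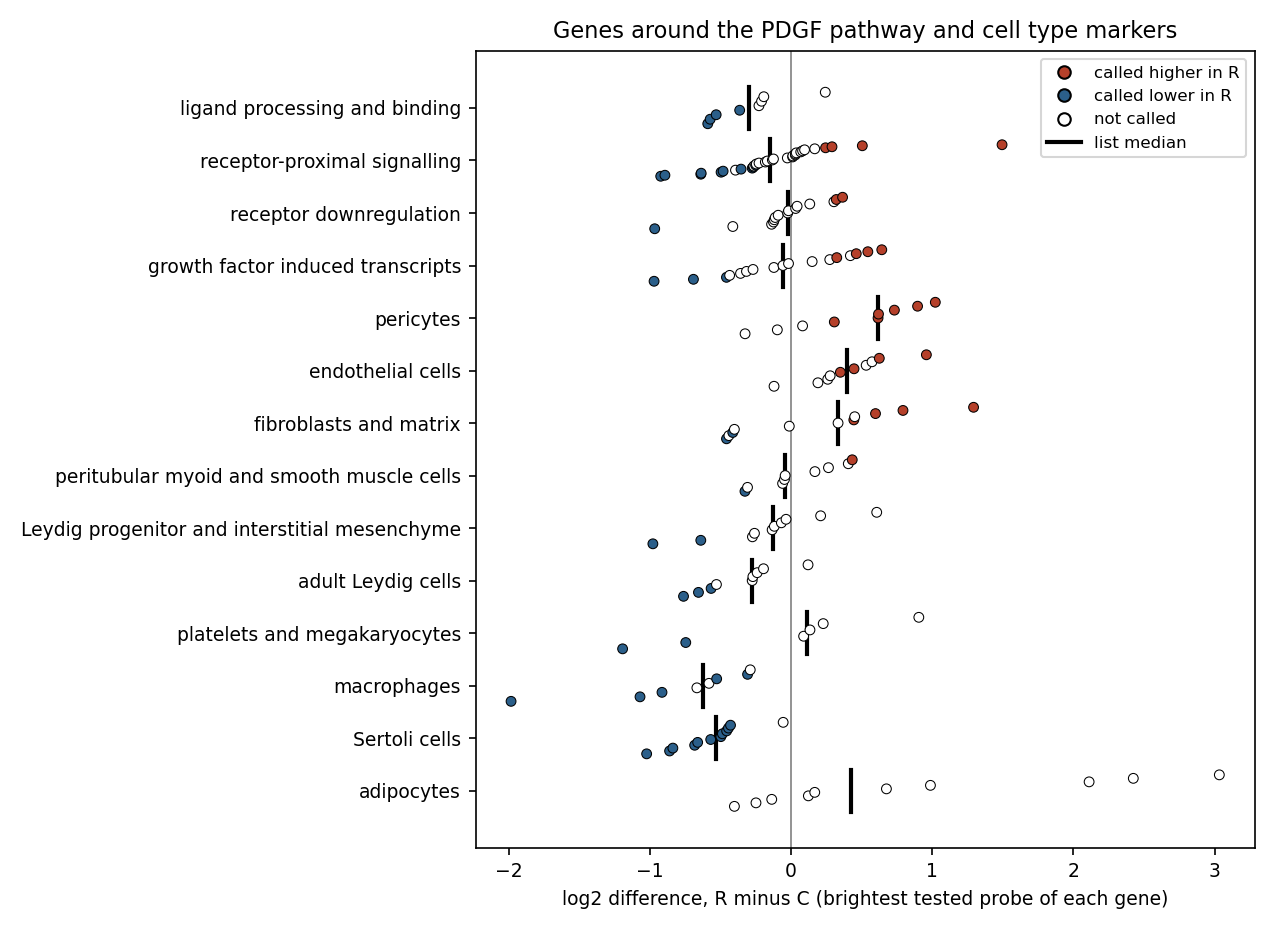
Log2 difference, R minus C, of each tested gene of the pathway and marker lists (x axis), 1 point per gene by its brightest tested probe. Red points were called higher in R, blue points called lower and open points not called; the black bar is the median of the list. Pericyte and endothelial calls all lie right of 0, Sertoli and macrophage calls all left of it, and the growth factor induced transcripts on both sides.

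Other cell types that can supply PDGF were measured beside the ligands. Their counts stand beside 20.6% called lower and 14.9% called higher over all genes. Sertoli cells, a known source of PDGF-A, had 11 of 12 markers called lower and 0 higher, with a median of -0.53 and summed levels of 167 to 191 in R and 226 to 364 in C. Ctsl differed by -1.02 (adjusted p 0.00174 in limma), Cst9 by -0.84, Aard by -0.86 and Clu by -0.44; Sox9 (-0.06) was not called, and the count was 7 without R1, R3, R4 or C1. Macrophage markers had 5 of 8 lower and 0 higher, with a median of -0.62 and sums of 2.32 to 3.79 in R and 3.45 to 5.70 in C. Mrc1 stood at -0.91 (adjusted p 0.00149), C1qb at -0.53, C1qa at -1.07 and Lyz2 at -1.98, the last well above background on 2 R arrays. Platelets carry stored PDGF, and of 6 platelet and megakaryocyte genes tested 2 were lower and 0 higher, while the list median was 0.11. The 2 were Gp1bb at -1.19 (adjusted p 0.00354) and Pf4 at -0.75 (adjusted p 0.0401). Ppbp, Itga2b, Gp9 and Gp1ba were too dim to test. Only 1 of the 2 was called without R3, R4, R5, C1, C2 or C5. Pdgfa was higher in R while the Sertoli markers were lower, and Pdgfc was lower as they were. The part of these cells in the differences of the ligands was not tested.

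**Figure D4:**
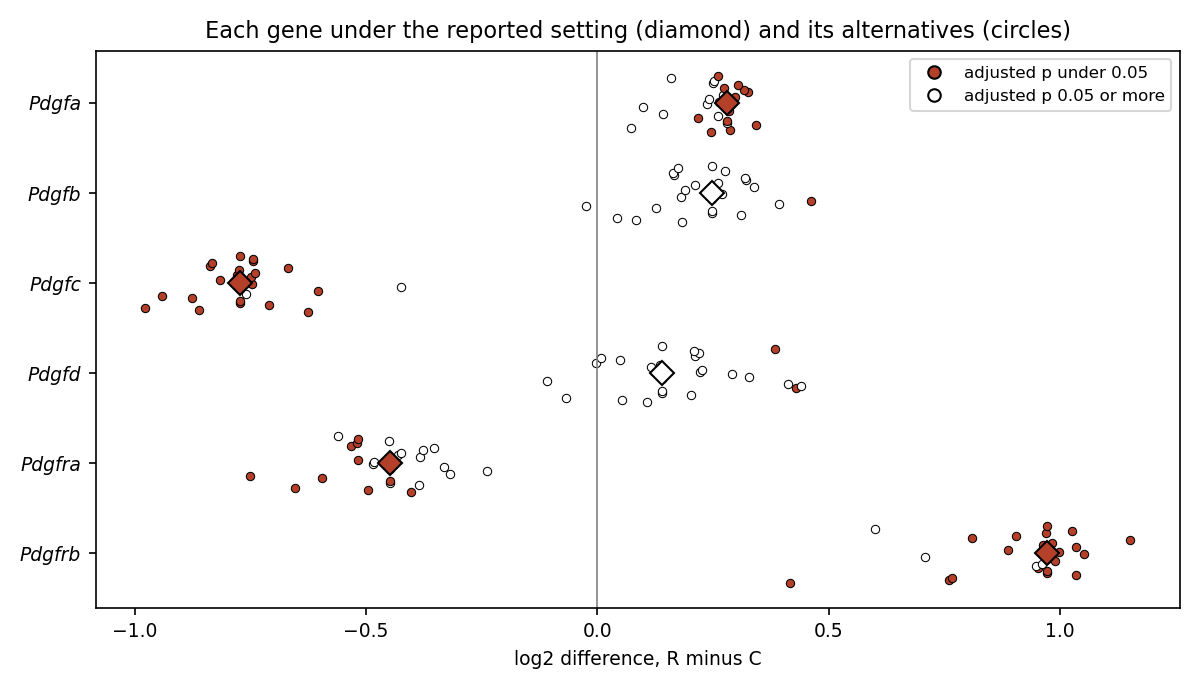
Log2 difference, R minus C, of each PDGF gene (x axis) under the reported setting (diamond) and the other settings (circles: other scalings, filters, slides, groupings, variance models, the mean of probes and arrays left out). The exact permutation test, which keeps the reported difference, is not drawn. Filled symbols have an adjusted p under 0.05. All Pdgfc and Pdgfra values lie left of 0 and all Pdgfa and Pdgfrb values right of it, while Pdgfb and Pdgfd have values on both sides.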

How the data were processed

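RNA of single testes from 5 R and 5 C males was labelled with Cy3 and hybridised to Agilent SurePrint G3 mouse arrays, per the labels. The labels name 2 RNA extraction kits of different size; which served which testis is not given in the sources used here. Scanner images became spot intensity values with Agilent Feature Extraction 12.0.3.1 (submitters' processing notes), and those files were deposited. Background and spatial trend were removed from the processed intensity by that program on each array alone, with no scaling between arrays, per the file headers, which give mm9 as the design's build. A table deposited by the authors lists 2266 probes with scaled intensity, the log2 ratio of 2 sides, p-values and q-values. Its scaled columns served to derive each array's scaling factor and side, and 10 per-sample columns of the same table were not used.

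Of 56605 non-control probes, 33767 were named by accession through a RefSeq gene table (GRCm38.p6), giving 23462 genes. Each array's 75th percentile (non-control probes) was subtracted from its log2 processed intensity, and limma 3.58.1 in R 4.3.3 (2-sided, Benjamini-Hochberg) tested the 33851 probes flagged well above background on 5 or more of the 10 arrays; 2 more lacked a value. The test was tried on simulated data first. The number of arrays limits the precision. Named genes are the 6 PDGF genes, up to 4 called genes of smallest p per list with others given for their values or, in a list of calls, by name, and the 3 genes most like each PDGF gene by Pearson r after removal of group means. The members and lists were chosen with earlier results of these data known. Alternatives covered background correction (normexp, offset 50, on spot and background medians), scaling, filters, slide, weights, variance model, grouping, the probe that stands for a gene, and leaving out each array. Blocking slide with C2 left out, and the list counts under all alternatives, were added after seeing the data. Labels give no pairing of animals. A few genes of the lists enter the counts but are not reported here by name.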

Additional observations from a re-analysis of the deposited data

How the results depend on the processing

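Pdgfc and Pdgfra stayed below 0 and Pdgfa and Pdgfrb above 0 under all 26 alternatives each. Some alternatives could not move the difference, because the other filters, the variance model and the exact permutation test leave the estimate unchanged. So does the mean of probes for a gene with 1 tested probe. Calls were kept in 24 for Pdgfc, 22 for Pdgfrb, 14 for Pdgfa and 12 for Pdgfra, with the permutation test counted by its unadjusted p. Calls that ended follow as the log2 difference, R minus C, with the adjusted p in limma. Pdgfa had 0.073 (0.581) with the array median as the zero point, 0.28 (0.0700) with no filter, 0.26 (0.0873) within slide 1, 0.14 (0.520) within slide 2, 0.10 (0.635) with the grouping of the authors' table, 0.24 (0.120) without R1 and C5, and 0.16 (0.164) with slide as a block without C2. Pdgfra had -0.38 (0.0565) with the authors' scaling factors, -0.45 (0.0980) with no filter, -0.32 (0.299) within slide 2, -0.24 (0.142) with array weights, -0.33 (0.461) with the table's grouping, -0.49 (0.105) without R1 and C5, and -0.56 (0.0610) as the mean of its probes. Pdgfc had -0.76 (0.130) within slide 2 and -0.42 (0.461) with the table's grouping. Pdgfrb had 0.95 (0.0865) within slide 1, 0.96 (0.120) within slide 2, 0.71 (0.461) with the table's grouping and 0.60 (0.0510) with slide as a block without C2. Pdgfb turned to -0.024 within slide 1 and was called at 0.46 (0.0194) with array weights. Pdgfd turned to -0.067 with the array median, -0.11 with array weights and -0.0028 without R5, and was called at 0.43 (0.0109) with slide as a block and at 0.38 (0.0420) with that block and without C2. The cause of these changes was not tested. Fits within a slide had fewer arrays, and the fit with no filter had more probes.

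With 1 array left out at a time, the differences ran from 0.24 to 0.32 for Pdgfa, 0.16 to 0.34 for Pdgfb, -0.84 to -0.67 for Pdgfc, -0.0028 to 0.23 for Pdgfd, -0.53 to -0.35 for Pdgfra and 0.81 to 1.15 for Pdgfrb. The number of PDGF genes called, 4, ran from 2 to 4, with 2 without R1, R4 or C5, and the number of probes called from 9245 to 13550. The 4 was 2 with no filter, within slide 1 and without R1 and C5, and 0 within slide 2 and with the table's grouping. Probes called numbered 6116 without R1 and C5 and 0 within slide 2 (8750 at an unadjusted p under 0.05 in limma) and with the table's grouping (2567). With no filter 9211 of 56601 probes were called. The array median moved the median change of all genes to -0.23, from -0.03 in the reported scaling. Relative to that median, Pdgfa was at 0.31 and Pdgfd at 0.17 in both. Another zero point moves every gene of an array by the same amount, so these values had to be equal. No paired analysis was possible because the labels give no replicate numbers or litters. Probes near background limit what the dim Pdgfra probe and Plau can show.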

Other observations

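Germ cell, fat, epididymal and blood markers were measured to describe what else the testis samples held. Of 11 spermatogonial genes, 1 was called higher in R and 5 lower, with a median of -0.21. Over all genes 14.9% were called higher and 20.6% lower. Gfra1, the co-receptor of glial cell line-derived neurotrophic factor on undifferentiated spermatogonia, was higher by 0.37 (adjusted p 0.0105 in limma). Stra8, which is induced by retinoic acid at meiotic entry, was lower by -0.78 (adjusted p 0.00253), and Sohlh1 was lower by -0.34 (adjusted p 0.00978). Without R1 or C1 the count of 5 lower was 3. Of 10 spermatid genes, 0 were called higher and 2 lower, with a median of -0.05, beside 20.6% called lower over all genes. The count of 2 was 0 without R1 or R4 and 1 without R3 or R5.

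Of 10 adipocyte genes none was called in either direction. Car3 stood at 2.42 (adjusted p 0.0500 in limma), Cfd at 3.03 (adjusted p 0.107) and Fabp4 at 2.11 (adjusted p 0.120), and without C2 4 of the 10 were called higher. Summed adipocyte levels were 6.59 to 17.2 in R and 6.65 to 14.7 in C. Of 4 red blood cell genes 3 were lower, beside 20.6% called lower over all genes. They were Hbb-b1 at -2.27 (adjusted p 0.0237), Hbb-bt at -1.14 (adjusted p 0.0225) and Alas2 at -0.60 (adjusted p 0.0215). Only 1 was called without R3. Hbb-b1 was well above background on 2 R arrays and 5 C arrays. None of 3 epididymal genes was called, and 6 others were too dim to test. None of the 8 tested PDGF probes had an animal that stood apart from its group by Dixon's criterion, in 16 sets of 5 animals.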
